A study of Homo sapiens with 2 samples.

Results

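The unfolded protein response and the amino acid stress response were described across 40 genes by RNA sequencing of A549, a widely used cell line from a human lung adenocarcinoma. The genes were taken by symbol, matched through their Entrez IDs. All 40 were found among the 16399 genes listed, and all 40 were among the 12820 genes expressed at 1 CPM (count per 1000000 counts of the library) or more in at least 1 library. The study set A549 cells overexpressing SFB-tagged plakophilin 2 (PKP2), a desmosomal plaque protein, against A549 cells carrying the vector, to look for genes downstream of PKP2. Both cultures were at passage 5 and were grown in DMEM with 10% FBS, and whether either was a clone, a pool or a transient culture is not given in the sources used here. Each group held 1 library, so no difference has a replicate check, no test was possible, and every comparison is between these libraries. The estimated counts summed to 16808842 in the PKP2 library and 16996976 in the vector library. PKP2 itself stood at 268 CPM in the PKP2 library and 27.3 CPM in the vector library.

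The endoplasmic reticulum (ER) folds secreted and membrane proteins with lumenal chaperones and disulfide isomerases. When unfolded protein builds up, the membrane sensors IRE1 (gene ERN1), PERK (gene EIF2AK3) and ATF6 raise chaperone and degradation genes through the transcription factors XBP1, ATF6 and ATF4. PERK, and the kinase GCN2 when amino acids are short, phosphorylate the translation factor eIF2, which favours translation of ATF4, and ATF4 then induces genes of amino acid synthesis and uptake. Much of this control acts on protein (translation of ATF4, cleavage of ATF6) or on splicing (XBP1), and gene-level RNA counts measure neither.

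These genes stood at nearly the same level in both libraries. Of the 40, 19 were higher and 21 lower in the PKP2 library, and the median difference in log2(CPM + 1), PKP2 minus vector, was -0.02, against 0.00 over all expressed genes. On the CPM + 1 scale only CEBPB was at least 25% higher and only SEL1L at least 20% lower, a difference of 0.32 or more in size on the log2 scale. Of all expressed genes 5.16% were past this step on the higher side and 6.98% on the lower side. None of the 40 was 1.5-fold higher, beside 0.733% of all expressed genes, or 1.5-fold lower, beside 0.788%. The 95% counting interval of the ratio lay above 1 for 10 genes, below 1 for 10 and included 1 for 20, beside 16.3% of all expressed genes above 1 and 19.8% below. The 40 genes were more abundant than most, with a median of 82.4 CPM against 29.7 CPM over all expressed genes, and more counts give narrower intervals. Intervals cover counting error only. Summed, the 40 genes held 0.899% of the counts of the PKP2 library and 0.918% of those of the vector library.

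Promoter elements through which the factors of these pathways are known to act are shown first, since they group the genes by sequence and not by any value measured here. The ER stress element (ERSE), a CCAAT box that binds NF-Y and a CCACG box that binds ATF6 or XBP1, was searched as CCAAT, then 9 bases of any kind, then CCACG. Both strands of the RefSeq promoters on GRCh38.p14 were searched, from 250 bases before to 50 bases after each annotated start, for 36 of the 40 genes. It was found in 27 of 35116 promoters, a share of 0.0769%. Counted by gene it was found for 25 of 27305 genes, or 0.0916%, and these included 7 of the 36 genes. Each match is written in the direction of the motif, with the fixed letters in capitals and 6 bases on either side. The coordinates are those of the motif without these bases.
CALR (chr19:12938384-12938402, minus strand): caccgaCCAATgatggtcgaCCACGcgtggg
CANX (chr5:179698778-179698796, plus strand): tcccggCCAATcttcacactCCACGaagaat
CRELD2 (chr22:49918554-49918572, minus strand): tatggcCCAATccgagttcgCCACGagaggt
HSP90B1 (chr12:103930216-103930234, plus strand): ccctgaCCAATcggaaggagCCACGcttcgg
HSP90B1 (chr12:103930321-103930339, minus strand): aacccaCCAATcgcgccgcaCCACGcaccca
HSPA5 (chr9:125241391-125241409, minus strand): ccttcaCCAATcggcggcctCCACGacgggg
PDIA6 (chr2:10812853-10812871, minus strand): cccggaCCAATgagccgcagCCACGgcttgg
XBP1 (chr22:28800603-28800621, minus strand): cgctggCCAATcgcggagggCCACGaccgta

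The shorter ERSE-II, searched as ATTGG, then 1 base of any kind, then CCACG, was found in 19 of 35116 promoters, or 0.0541%. Counted by gene it was found for 19 of 27305 genes, or 0.0696%, and these included 3 of the 36 genes, with 2 matches in HYOU1.
HERPUD1 (chr16:56932025-56932035, plus strand): acgccgATTGGgCCACGttggga
HYOU1 (chr11:119057274-119057284, plus strand): gtactcATTGGaCCACGtcccag
HYOU1 (chr11:119057380-119057390, plus strand): cctgggATTGGaCCACGtcacgg
SDF2L1 (chr22:21642114-21642124, minus strand): gttttgATTGGtCCACGcttccg

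The C/EBP-ATF response element (CARE), bound by ATF4 with a C/EBP partner, was searched as TGATG, then 1 base of any kind, then AA. This short motif was found in 1270 of 35116 promoters, or 3.62%. Counted by gene it was found for 1217 of 27305 genes, or 4.46%, and these included 5 of the 36 genes. No match of one motif overlapped a match of another in these genes.
ASNS (chr7:97872469-97872476, minus strand): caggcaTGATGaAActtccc
CHAC1 (chr15:40953262-40953269, minus strand): caggagTGATGcAAcggcag
HERPUD1 (chr16:56931966-56931973, minus strand): acgggcTGATGcAAcccgcc
SLC1A5 (chr19:46784904-46784911, minus strand): agtggcTGATGcAAgctgtc
SLC7A1 (chr13:29595674-29595681, minus strand): cactgcTGATGaAAcctggc

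The promoters of HSPA5 and HSP90B1, which encode the most studied chaperones of the response, and of HERPUD1, which holds both an ERSE-II and a CARE, are given whole on the strand of the gene. Capitals here mark each whole match, its free bases included. Only exact letters were searched, so a stretch that differs from a motif at any fixed base is not marked. A match on the opposite strand reads as its reverse complement, as for the second match of HSP90B1 and the CARE of HERPUD1.
HSPA5 promoter (chr9:125241294-125241593, minus strand): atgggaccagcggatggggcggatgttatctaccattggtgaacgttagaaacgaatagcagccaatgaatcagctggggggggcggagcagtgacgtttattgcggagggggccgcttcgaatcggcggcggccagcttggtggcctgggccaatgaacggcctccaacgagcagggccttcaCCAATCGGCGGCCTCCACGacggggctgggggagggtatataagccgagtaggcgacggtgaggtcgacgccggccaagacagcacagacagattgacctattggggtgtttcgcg
HSP90B1 promoter (chr12:103930160-103930459, plus strand): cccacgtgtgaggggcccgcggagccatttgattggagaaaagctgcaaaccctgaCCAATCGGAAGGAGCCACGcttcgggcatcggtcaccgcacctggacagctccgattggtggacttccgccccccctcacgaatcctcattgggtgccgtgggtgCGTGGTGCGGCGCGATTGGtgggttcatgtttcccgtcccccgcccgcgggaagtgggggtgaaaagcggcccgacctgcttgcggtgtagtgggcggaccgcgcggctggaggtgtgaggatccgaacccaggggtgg
HERPUD1 promoter (chr16:56931892-56932191, plus strand): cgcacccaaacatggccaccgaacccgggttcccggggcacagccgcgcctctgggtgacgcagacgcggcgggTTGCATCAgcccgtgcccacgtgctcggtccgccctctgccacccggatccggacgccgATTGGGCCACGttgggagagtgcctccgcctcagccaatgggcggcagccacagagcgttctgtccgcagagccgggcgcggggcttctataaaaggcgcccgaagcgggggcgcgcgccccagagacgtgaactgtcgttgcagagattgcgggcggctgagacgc

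The genes with these elements did not lie on one side. Of the 10 with an ERSE or ERSE-II, 5 were higher and 5 lower in the PKP2 library, with differences between -0.20 (CANX) and 0.23 (CRELD2) and a median of -0.01. Of the 5 with a CARE, 2 were higher (ASNS, and SLC1A5 by only 0.002) and 3 lower (CHAC1, HERPUD1 and SLC7A1), with a median of -0.14. With a trend on transcript length and GC content removed, as described with the length plot, ASNS alone of these 5 lay above 0, at 0.04. CHAC1 then lay at -0.30, HERPUD1 at -0.18, SLC7A1 at -0.13 and SLC1A5 at -0.10. The genes with an ERSE or ERSE-II then ranged from -0.18 (HERPUD1) to 0.14 (CRELD2). The 22 genes in the promoter table with no exact match had a median of -0.05. Such genes may still hold variants of these elements, or elements outside the bases searched. A match is a description of letters and not a measured site, and none of these groups was tested.

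**Figure D1:**
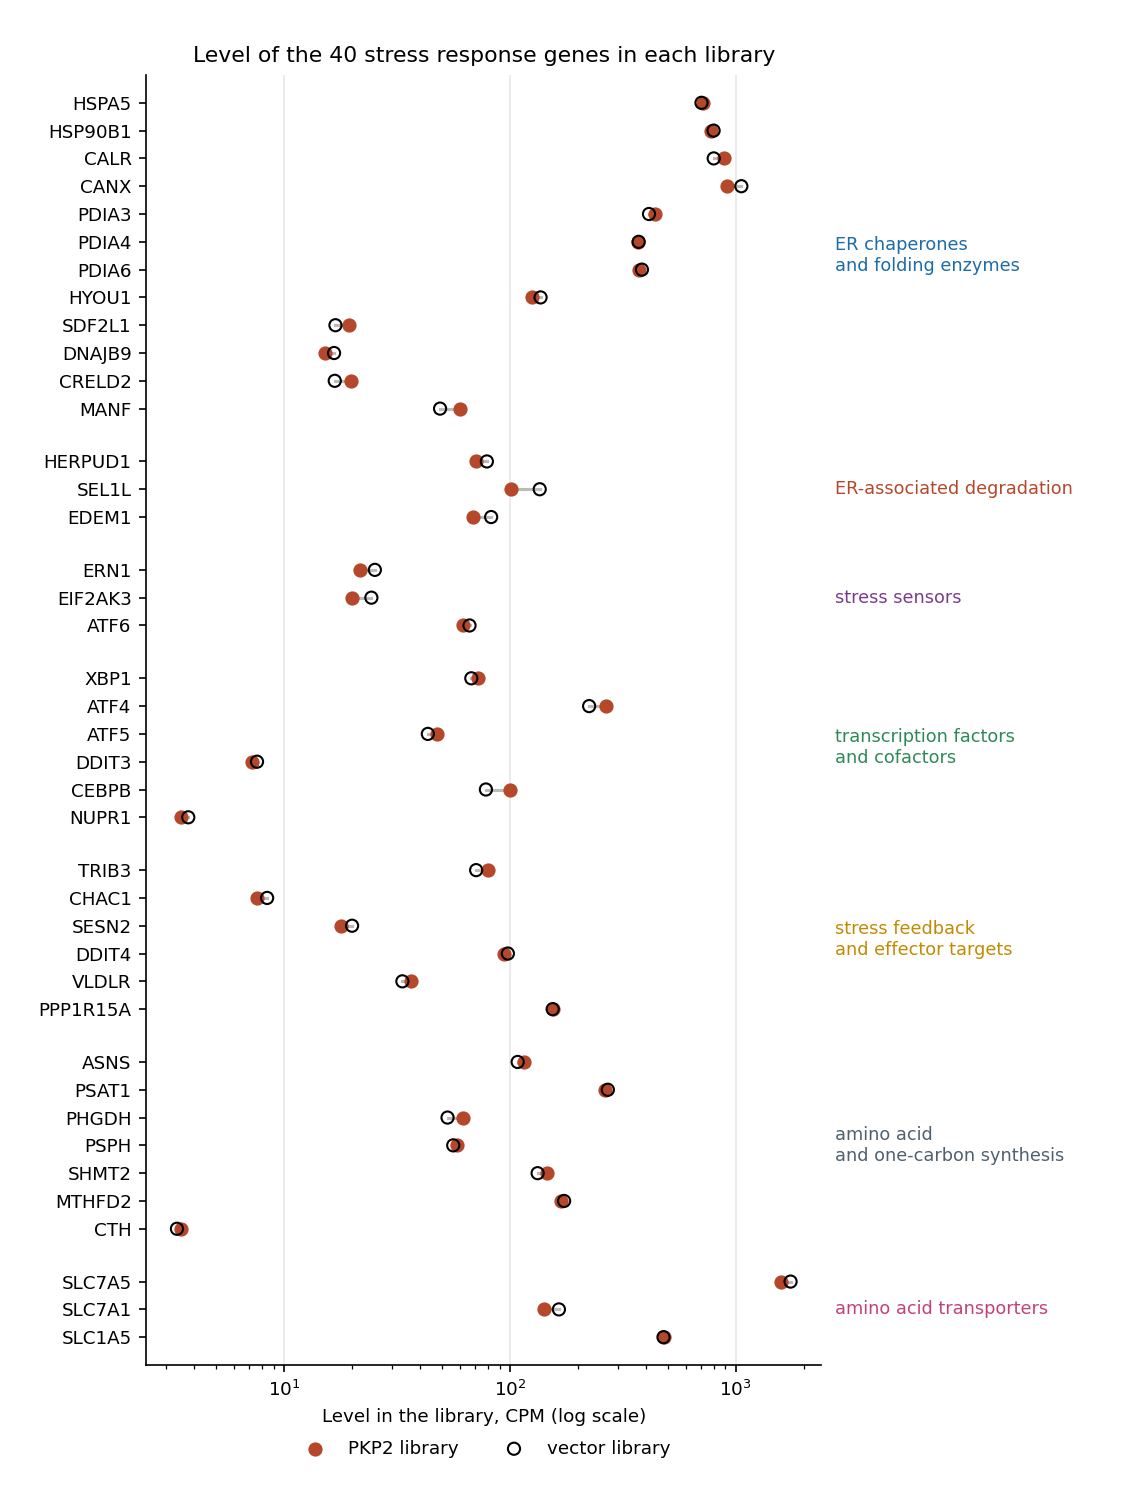
Level of each of the 40 genes in CPM on a log axis, with filled points for the PKP2 library and open points for the vector library, arranged by role. Each pair lies close together over a range from about 3.51 CPM (NUPR1 and CTH) to 1593 CPM (SLC7A5) in the PKP2 library.

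ER chaperones and folding enzymes were split evenly. Of 12, 6 were higher and 6 lower in the PKP2 library and none was past 0.32 either way. Their median difference was 0.01. Their summed level was 4719.9 CPM in the PKP2 library and 4767 CPM in the vector library. The ratio of these sums was 0.990 (0.980 to 0.9998), just below 1. HSPA5, the BiP chaperone that also holds the sensors inactive, stood at 716 CPM in the PKP2 library and 705 CPM in the vector library. Its ratio was 1.01 with a counting interval of 0.989 to 1.04, so no difference was detectable at this depth. HSP90B1, the ER form of HSP90 (GRP94), stood at 778 CPM in the PKP2 library and 798 CPM in the vector library, a ratio of 0.974 (0.951 to 0.998).

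The paired lectin chaperones of glycoprotein folding lay on opposite sides. CALR (calreticulin, soluble in the lumen) had 885 CPM in the PKP2 library and 799 CPM in the vector library, 1.11-fold higher (1.08 to 1.13). CANX (calnexin, its membrane-bound relative) had 919 CPM in the PKP2 library and 1059 CPM in the vector library, 1.15-fold lower (1.13 to 1.18). With a trend on transcript length and GC content removed, as described with the length plot, CALR lay at 0.02 instead of 0.15 and CANX at -0.14 instead of -0.20.

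The disulfide isomerases differed little. PDIA3, which works with both lectins, had 440 CPM (439.8) in the PKP2 library and 413 CPM in the vector library, a ratio of 1.06 (1.03 to 1.10). PDIA4 had 371 CPM in the PKP2 library and 372 CPM in the vector library. PDIA6, whose estimated count was fractional, had 373 CPM in the PKP2 library and 384 CPM in the vector library. The intervals of both included 1. HYOU1, a large chaperone that exchanges the nucleotide of BiP, was 1.09-fold lower (1.03 to 1.16), at 125 CPM in the PKP2 library and 137 CPM in the vector library.

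Among the chaperones MANF and CRELD2 had the largest differences in size. MANF, a secreted ER stress protein, had 60.1 CPM in the PKP2 library and 49.1 CPM in the vector library, 1.23-fold higher (1.12 to 1.35). CRELD2, a lumenal protein of the same response, had 19.8 CPM in the PKP2 library and 16.8 CPM in the vector library, 1.18-fold higher (1.01 to 1.39). SDF2L1, a partner of ER J-domain proteins, had 327 counts in the PKP2 library and 287 counts in the vector library, and its interval of 0.980 to 1.35 included 1. DNAJB9 (ERdj4), a J-domain co-chaperone of BiP, had 256 counts in the PKP2 library and 283 counts in the vector library, with an interval of 0.769 to 1.09. After removal of the trend MANF lay at 0.15 instead of 0.29, CRELD2 at 0.14 instead of 0.23 and SDF2L1 at -0.07 instead of 0.19.

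All 3 genes of ER-associated degradation, which sends misfolded protein to the proteasome, were lower in the PKP2 library with intervals below 1, beside 19.8% of all expressed genes and 2 of 14 in a further list of degradation genes. SEL1L, the adaptor of the HRD1 ubiquitin ligase, had 101 CPM in the PKP2 library and 136 CPM in the vector library, 1.34-fold lower (1.26 to 1.43). EDEM1, a mannosidase-like factor that marks glycoproteins for disposal, had 68.4 CPM in the PKP2 library and 82.6 CPM in the vector library, 1.21-fold lower (1.12 to 1.31). HERPUD1, a membrane scaffold of the HRD1 complex and a sensitive target of the response, had 71.1 CPM in the PKP2 library and 79.1 CPM in the vector library, a ratio of 0.899 (0.831 to 0.973). The median difference of the group was -0.27, the lowest of the 7 role groups. SEL1L and EDEM1 have long transcripts (7925 and 6146 nucleotides). With the trend removed the 3 differences were -0.24 for SEL1L, -0.17 for EDEM1 and -0.18 for HERPUD1, all still negative.

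The genes of the stress sensors were also lower. EIF2AK3 (PERK) had 19.99 CPM in the PKP2 library and 24.4 CPM in the vector library, 1.22-fold lower (1.05 to 1.41). ERN1 (IRE1, the kinase and nuclease that splices XBP1) had 21.7 CPM in the PKP2 library and 25.2 CPM in the vector library, 1.16-fold lower (1.01 to 1.34). ATF6 (fractional count), a membrane-tethered transcription factor, had 62.1 CPM in the PKP2 library and 66.3 CPM in the vector library, and its interval of 0.861 to 1.02 included 1. The group median was -0.21. Without the trend EIF2AK3 lay at -0.21, ERN1 at -0.10 and ATF6 at 0.07, so that the direction of ATF6 turned.

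The transcription factors had the highest median of the 7 role groups, 0.11, with 4 of 6 higher. With the length and GC trend removed this median was 0.04, with 3 of 6 higher. Without fractional counts it was 0.01 over 4 genes, below the 0.09 of amino acid and one-carbon synthesis. CEBPB (C/EBP beta, a partner of ATF4 that inflammatory signals also induce) had 100.2 CPM in the PKP2 library and 78.3 CPM in the vector library, 1.28-fold higher (1.19 to 1.38). ATF4, the central factor of the amino acid response, had 267 CPM in the PKP2 library and 224 CPM in the vector library, 1.19-fold higher (1.14 to 1.24), from fractional counts of 4494.97 in the PKP2 library and 3813.53 in the vector library. XBP1 had 72.1 CPM in the PKP2 library and 67.5 CPM in the vector library, and its interval of 0.985 to 1.16 included 1. These counts do not separate the spliced from the unspliced form of XBP1. ATF5 (fractional count), a relative of ATF4, had 47.7 CPM in the PKP2 library and 43.3 CPM in the vector library, with an interval of 0.994 to 1.22.

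DDIT3 and NUPR1, which are strongly induced in acute ER stress, were at low levels in both libraries. DDIT3 (CHOP, a pro-apoptotic factor downstream of ATF4) had 121 counts in the PKP2 library and 129 counts in the vector library, a ratio of 0.948 (0.734 to 1.23). NUPR1, a small chromatin-associated stress protein, had 59 counts in the PKP2 library and 64 counts in the vector library, a ratio of 0.932 (0.643 to 1.35). Both intervals were wide and included 1, so no difference was detectable at these counts and small differences could be missed. Without the trend CEBPB lay at 0.18 instead of 0.35, ATF4 at 0.12 instead of 0.25 and DDIT3 at -0.23 instead of -0.07.

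**Figure D2:**
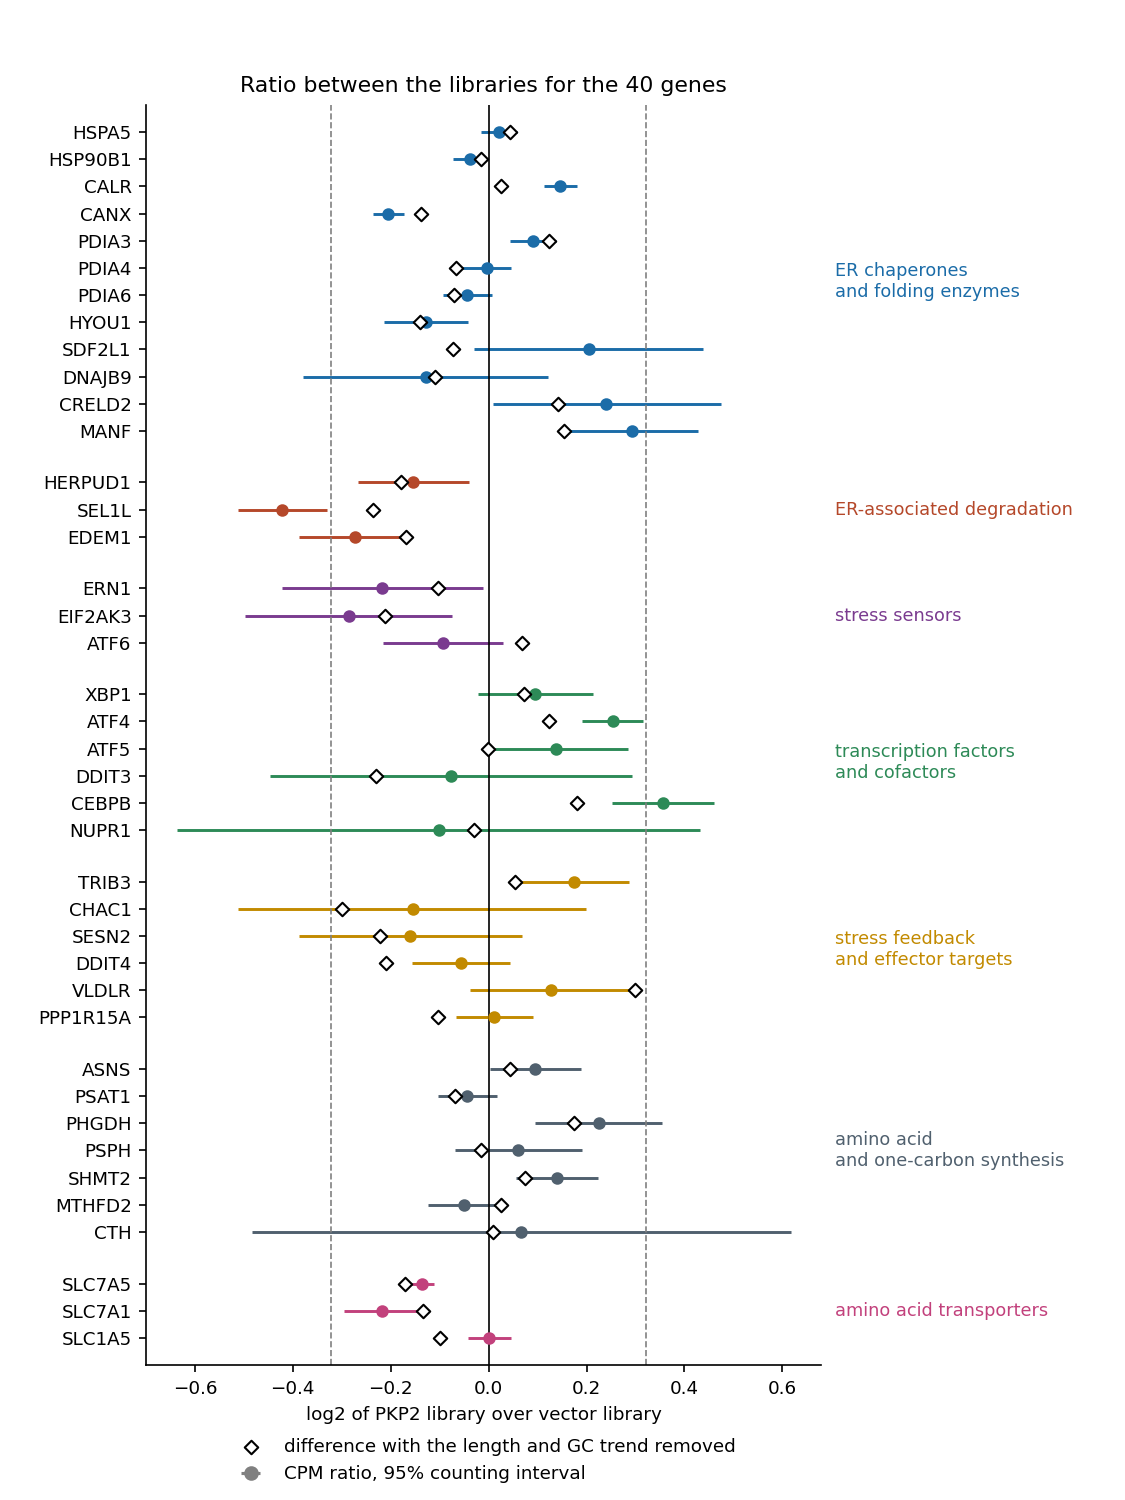
Log2 of the ratio of CPM in the PKP2 library over the vector library for each gene (filled points) with its 95% counting interval (bars), and the log2(CPM + 1) difference with the length and GC trend removed (open diamonds). Dashed lines mark 0.32 either way, which only CEBPB and SEL1L passed, and all diamonds lie between these lines.

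The ATF4-driven targets of feedback and cell fate were centred near 0, with 3 of 6 higher, 3 lower and a median of -0.02. TRIB3, a pseudokinase that restrains ATF4 and CHOP, had 80.0 CPM in the PKP2 library and 70.9 CPM in the vector library, 1.13-fold higher (1.04 to 1.22). TRIB3 was the 1 gene of this group whose interval excluded 1, beside 16.3% of all expressed genes above 1 and 19.8% below. PPP1R15A (GADD34, which returns eIF2 to its active form) had 156 CPM in the PKP2 library and 155 CPM in the vector library, a ratio of 1.01 (0.955 to 1.06). CHAC1, which degrades glutathione, had 127 counts in the PKP2 library and 143 counts in the vector library, with an interval of 0.702 to 1.15.

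SESN2 (sestrin 2, a leucine sensor that restrains mTORC1) had 17.9 CPM in the PKP2 library and 20.0 CPM in the vector library, with an interval of 0.764 to 1.05. DDIT4 (REDD1, another brake on mTORC1) had 94.2 CPM in the PKP2 library and 98.0 CPM in the vector library, with an interval of 0.897 to 1.03. VLDLR, a lipoprotein receptor that ATF4 also induces, had 36.5 CPM in the PKP2 library and 33.4 CPM in the vector library, with an interval of 0.974 to 1.23. With the trend removed this group had a median of -0.16, with CHAC1 at -0.30, SESN2 at -0.22, DDIT4 at -0.21 and VLDLR at 0.30, the lowest and highest of the 40 genes being CHAC1 and VLDLR. TRIB3 then lay at 0.05 instead of 0.17 and PPP1R15A at -0.10 instead of 0.01.

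Of the genes of amino acid and one-carbon synthesis, 5 of 7 were higher, beside 6372 of the 12820 expressed genes, and their median difference was 0.06. The intervals of 4 of the 7 included 1, and so did that of their summed level, a ratio of 1.02 (0.999 to 1.05). A549 carries a KEAP1 mutation that keeps the factor NRF2 active, which is known to sustain serine synthesis genes through ATF4 in lung cancer cells. PHGDH, the entry enzyme of serine synthesis, had 61.9 CPM in the PKP2 library and 53.0 CPM in the vector library, 1.17-fold higher (1.07 to 1.28). PSAT1, the next enzyme, had 263 CPM in the PKP2 library and 272 CPM in the vector library, with an interval of 0.931 to 1.01. PSPH (fractional count), the last, had 58.5 CPM in the PKP2 library and 56.1 CPM in the vector library, with an interval of 0.953 to 1.14. Of these 3 successive enzymes, PHGDH alone had an interval that excluded 1.

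SHMT2, which makes glycine from serine in mitochondria, had 146 CPM in the PKP2 library and 133 CPM in the vector library, 1.10-fold higher (1.04 to 1.17). MTHFD2, the mitochondrial folate enzyme that follows it, had 168 CPM in the PKP2 library and 174 CPM in the vector library, with an interval of 0.917 to 1.02. ASNS, asparagine synthetase, had 1944 counts in the PKP2 library and 1840 counts in the vector library, 1.07-fold higher with an interval of 1.002 to 1.14. CTH (fractional count), which makes cysteine from cystathionine, was low, at 3.51 CPM in the PKP2 library and 3.35 CPM in the vector library, and its interval of 0.715 to 1.53 was among the widest. After removal of the trend PHGDH lay at 0.17, SHMT2 at 0.08, ASNS at 0.04, MTHFD2 at 0.03, CTH at 0.01, PSPH at -0.01 and PSAT1 at -0.07.

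Of the amino acid transporters, 2 were lower with intervals below 1, beside 19.8% of all expressed genes, and the third was level. All were abundant, and more counts give narrower intervals. SLC7A5 (LAT1, fractional count), which takes up leucine and other large neutral amino acids, was the most abundant of the 40 genes. It had 1593 CPM in the PKP2 library and 1749.5 CPM in the vector library, 1.10-fold lower (1.08 to 1.12). SLC7A1 (CAT1), the main carrier of arginine and lysine, had 142 CPM in the PKP2 library and 165 CPM in the vector library, 1.16-fold lower (1.10 to 1.23). SLC1A5 (ASCT2), a glutamine carrier, had 479 CPM in both libraries, a ratio of 1.00 (0.971 to 1.03). The group median was -0.14, and with the trend removed it was -0.13 with SLC1A5 at -0.10.

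Per kilobase of the longest annotated transcript the order of levels was almost the same in both libraries. CALR led with 465 CPM per kilobase in the PKP2 library and 420.0 CPM per kilobase in the vector library, followed in both by SLC7A5, HSP90B1, CANX, HSPA5, SLC1A5 and PDIA6. ATF4 held rank 8 in the PKP2 library and rank 10 in the vector library. NUPR1 was last in both, with 0.639 CPM per kilobase in the PKP2 library and 0.686 CPM per kilobase in the vector library. Its longest annotated transcript has 5491 nucleotides, and a shorter transcript would give a higher value, so this rank depends on the annotation. In bulk RNA, fewer cells with a transcript and less of it per cell cannot be told apart.

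**Figure D3:**
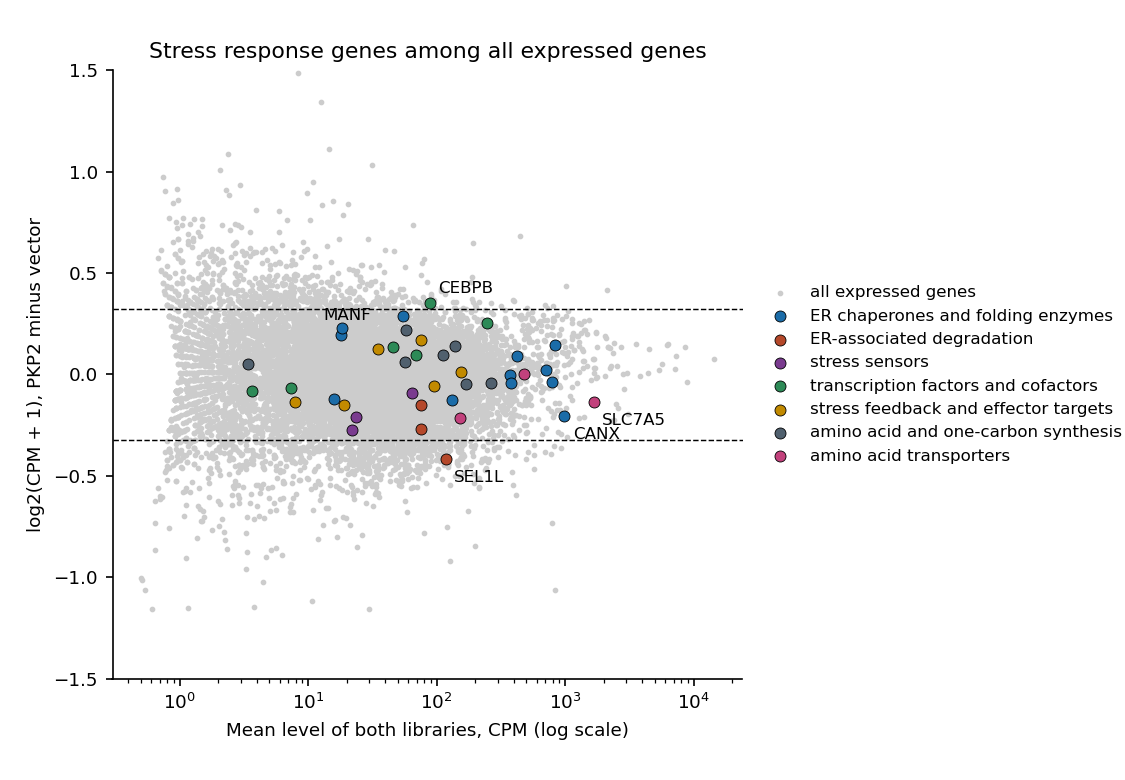
Difference in log2(CPM + 1), PKP2 minus vector, against mean CPM of both libraries on a log axis, for all expressed genes (grey) and the 40 genes (coloured by role), with dashed lines at 0.32 either way. 38 of the 40 lie between the 5th and 95th percentile of all expressed genes, -0.36 and 0.33, and 8 genes fall outside the vertical axis.

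Differences followed transcript length among these genes as they did over the whole transcriptome. Spearman's rho between the difference and the length of the longest transcript was -0.57 over the 40 genes and -0.46 over 12670 expressed genes with a length. Genes within a pair of libraries are not independent, so these values are descriptions. Of the 14 genes at or above the median length of 3725 nucleotides, 3 were higher and 11 lower, with a median of -0.13. Of the 26 shorter ones, 16 were higher and 10 lower, with a median of 0.06. Over all expressed genes these medians were -0.09 for the longer and 0.07 for the shorter. With a smooth trend on length and GC content over all expressed genes removed, none of the 40 was past 0.32 in size, beside 3.95% of all expressed genes on the higher side and 4.03% on the lower side. The medians were then -0.12 for the longer and -0.02 for the shorter of the 40 genes. Over all expressed genes they were -0.01 for the longer and -0.01 for the shorter. Of the 40, 7 changed sign: SDF2L1, ATF6, ATF5, PPP1R15A, PSPH, MTHFD2 and SLC1A5.

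**Figure D4:**
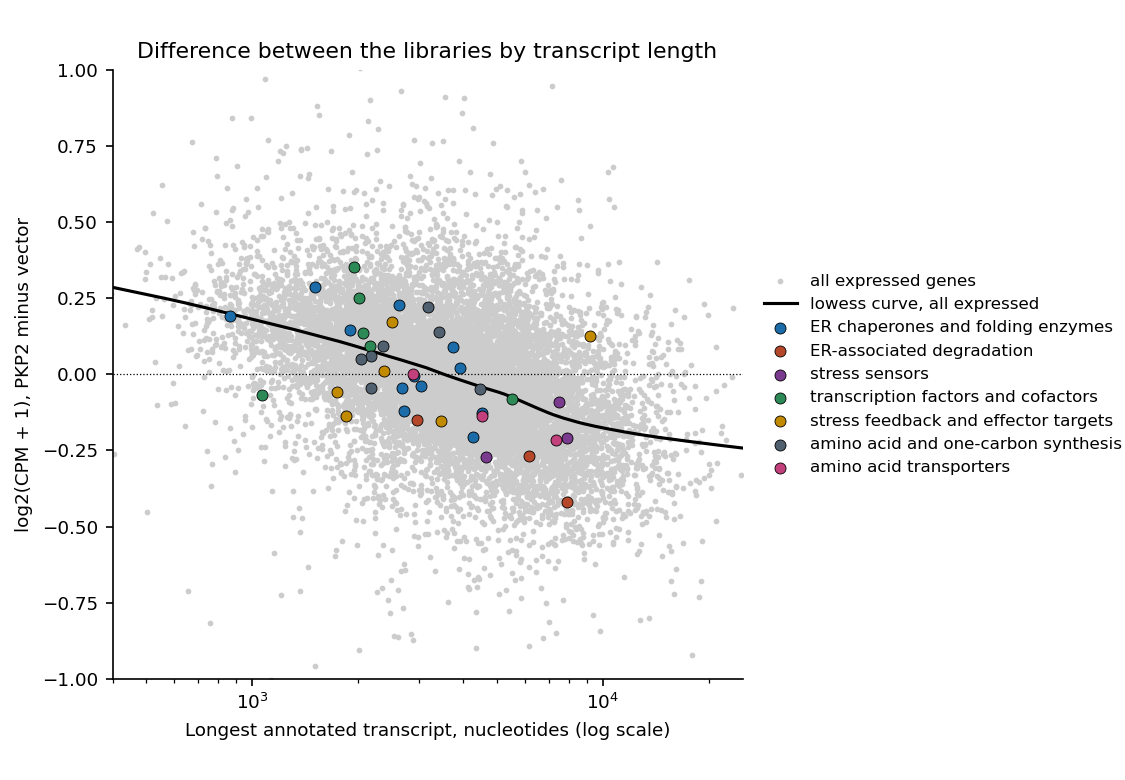
Difference in log2(CPM + 1), PKP2 minus vector, against the length of the longest annotated transcript on a log axis, for all expressed genes (grey, with a lowess curve) and the 40 genes (coloured by role). The curve falls from left to right, and SEL1L (7925 nucleotides), ERN1 and SLC7A1 lie at the lower right. VLDLR, the longest of the 40 (9163 nucleotides), lies above 0, at 0.12. 33 genes fall outside the axes.

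Further genes of the same pathways were read from 6 lists. Of 97 expressed genes, 52 were higher and 45 lower, with a median of 0.01, and 1 was past 0.32 on the higher side and 8 on the lower side, beside the 5.16% and 6.98% of all expressed genes. With the trend removed 2 were past it on the higher side and 1 on the lower side, beside 3.95% and 4.03%. Other ER folding factors had a median of 0.06 and 4 of 16 past 0.32 on the lower side, or 1 of 16 with the trend removed. ERO1B, an oxidase that recharges disulfide isomerases (fractional count), had 10.2 CPM in the PKP2 library and 15.7 CPM in the vector library, 1.54-fold lower (1.26 to 1.88). FKBP14, a proline isomerase of the ER (fractional count), was 1.29-fold lower (1.13 to 1.46).

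Other degradation genes had a median of 0.03. EDEM3, a relative of EDEM1, had 40.5 CPM in the PKP2 library and 54.8 CPM in the vector library, a ratio of 0.738 (0.667 to 0.815), whereas DERL2, a channel component, was 1.19-fold higher (1.09 to 1.30). Translocation genes had a median of 0.04 and none past 0.32. The channel subunit SEC61B was 1.23-fold higher (1.14 to 1.33) and the translocon-associated SSR4 1.21-fold higher (1.13 to 1.30).

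Among other sensors and factors the median was -0.03. MBTPS2, the protease that makes the final cut of ATF6, had 61.9 CPM in the PKP2 library and 82.5 CPM in the vector library, 1.33-fold lower (1.23 to 1.45). PPP1R15B, the constitutive relative of GADD34, was 1.15-fold lower (1.08 to 1.23). ATF3, a target of ATF4, had 63.7 CPM in the PKP2 library and 60.7 CPM in the vector library, with an interval of 0.963 to 1.14.

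Cytosolic aminoacyl-tRNA synthetases, many of them ATF4 targets, were level. None of 20 was past 0.32 and their median was -0.01, with IARS1 1.23-fold lower (1.19 to 1.27) and EPRS1 1.18-fold lower (1.13 to 1.24). Other ATF4-linked transporters and enzymes had a median of 0.02. CBS, which makes cystathionine from homocysteine (fractional count), had 24.6 CPM in the PKP2 library and 16.8 CPM in the vector library, 1.46-fold higher (1.253 to 1.70). SLC7A11, the cystine carrier, had 213 CPM in the PKP2 library and 287 CPM in the vector library. With the trend removed CBS lay at 0.42 instead of 0.52, ERO1B at -0.47 instead of -0.58, EDEM3 at -0.26 instead of -0.43, MBTPS2 at -0.30 instead of -0.41 and DERL2 at 0.33 instead of 0.25. FKBP14 lay at -0.24 instead of -0.35, SEC61B at 0.09 instead of 0.29, SSR4 at 0.16 instead of 0.27, PPP1R15B at -0.12 instead of -0.20, IARS1 at -0.23 instead of -0.30, EPRS1 at -0.16 instead of -0.24 and SLC7A11 at -0.21 instead of -0.43.

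**Figure D5:**
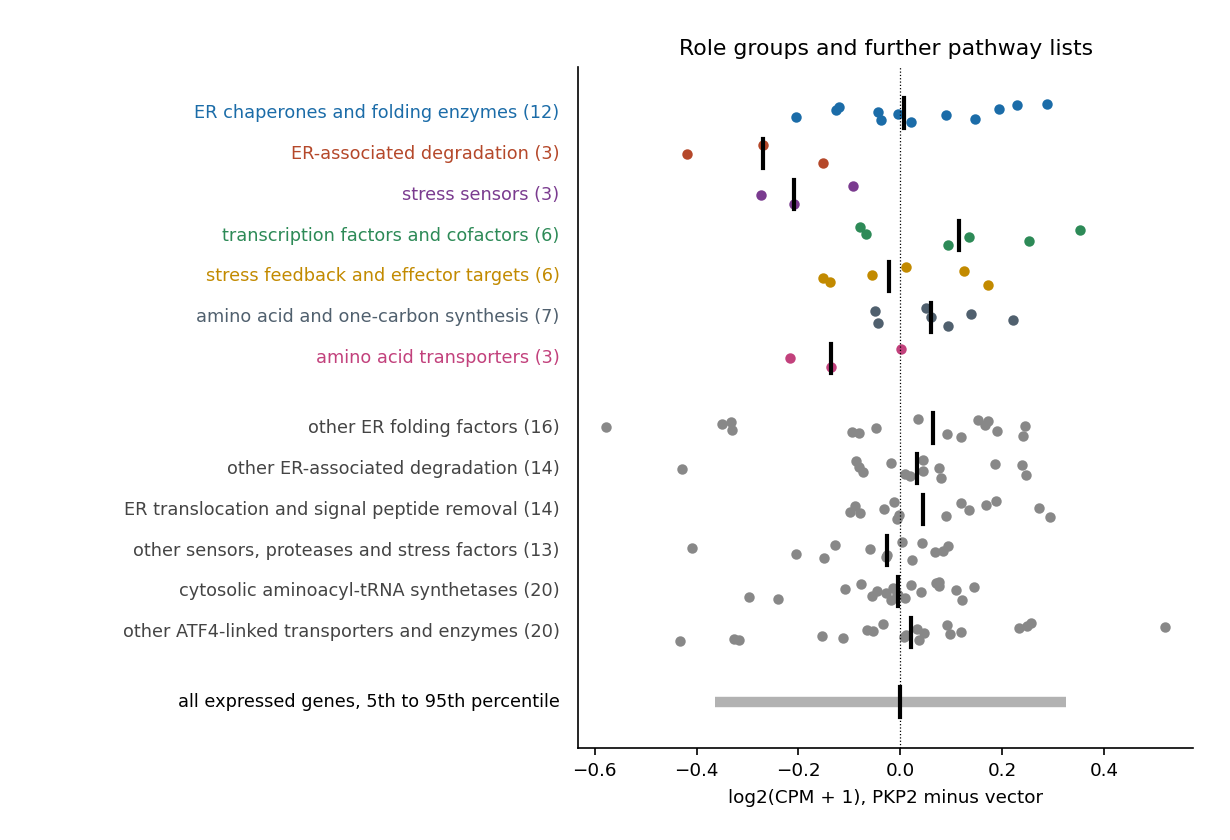
Difference in log2(CPM + 1), PKP2 minus vector, of each gene (points) in the 7 role groups and 6 further lists, with the number of genes in brackets and a black bar at each median, above the 5th to 95th percentile of all expressed genes. The degradation and sensor groups of 3 genes each lie fully left of 0, while the further degradation list is centred at 0.03.

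The libraries carried the markers of an epithelial line. KRT8 stood at 5416 CPM in the PKP2 library and 5339 CPM in the vector library, while EPCAM was low in both, at 1.37 CPM in the PKP2 library and 1.47 CPM in the vector library. CDH1 stood at 55.0 CPM in the PKP2 library and 63.2 CPM in the vector library. All 5 epithelial markers summed to 9690 CPM in the PKP2 library and 9604 CPM in the vector library. Most of this was KRT8 and KRT18, the latter at 3849 CPM in the PKP2 library and 3875 CPM in the vector library. The 4 enzymes known to be abundant in A549 summed to 11636 CPM in the PKP2 library and 11372.5 CPM in the vector library, with ALDH1A1 higher (6615 CPM in the PKP2 library and 5955 CPM in the vector library) and AKR1B10 lower (2896 CPM in the PKP2 library and 3312 CPM in the vector library). Endothelial markers summed to 0.892 CPM in the PKP2 library and 0.235 CPM in the vector library, and fibroblast markers to 11.5 CPM in the PKP2 library and 9.0 CPM in the vector library. Leukocyte markers summed to 85.8 CPM in the PKP2 library and 81.8 CPM in the vector library, nearly all of it CD68 (82.5 CPM in the PKP2 library and 78.4 CPM in the vector library), a lysosomal protein that many cell types make. Of the 40 genes, 20 share exonic bases with another annotated gene, 4 of them on the same strand (HSP90B1, ATF5, DDIT3 and ASNS). The strand setting of the counting is not given in the sources used here, so reads of overlapping genes may not be told apart.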

How the data were processed

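RNA was extracted with Trizol and sequenced from 1 PKP2 library and 1 vector library made with an Illumina TruSeq kit, per the labels' protocols. The authors' deposited files hold unscaled estimated counts by Entrez ID, with 2491 fractional values in the PKP2 library and 2403 in the vector library. The submitters' processing notes name HISAT2 2.0.4, Bowtie2, RSEM 1.2.12 and the build GRCh38.p12, with no role given. Symbols came from RefSeq (16183 of 16399 IDs matched), length and GC content from the longest GENCODE release 29 transcript (98.8% of expressed genes).

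CPM, the difference in log2(CPM + 1), and the ratio of CPM with an exact Clopper-Pearson interval (95%, rounded counts) were computed in Python 3.11.15 with scipy 1.17.1. A gene was called at 25% higher or 20% lower on the CPM + 1 scale. The trend was an additive lowess curve (statsmodels 0.14.6, span 0.3). TMM factors came from edgeR 4.0.16. Calculations were tested on simulated counts. Named were PKP2, all 40 genes, the 2 genes with the largest difference at a mean of 5 CPM or more in each further list, ATF3 and SLC7A11. Single markers and other genes named in the text were picked from their lists after their values were seen. The 40 genes and all lists were chosen with earlier results of these data known. FGF21, on a further list, was not analysed here.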

Additional observations from a re-analysis of the deposited data

How the results depend on the processing

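With 1 library per group no replicate could be left out. No paired analysis was possible because each group held 1 library. The counts of 1 gene at least 25% higher and 1 at least 20% lower were 0 and 0 at 1.5-fold, 0 and 0 at 2-fold, and 0 and 0 after the trend on length and GC content was removed, where CEBPB lay at 0.18 and SEL1L at -0.24. They were 1 and 1 with pseudocounts of 0.1 and 5, with no filter, at a mean of 5 CPM or more, with TMM scaling, with the median log ratio set to 0 and without fractional counts. The median of the feedback and effector targets was -0.16 with the trend removed, against -0.02. The median of the transporters was -0.11 over 2 genes without SLC7A5, whose count is fractional, against -0.14. The other medians of the role groups stayed, under every alternative run, between the medians of their genes' interval bounds. These bounds can be wide, at -0.02 and 0.30 for the transcription factors. Their median was 0.04 with the trend removed and 0.01 without fractional counts, against 0.11. With the trend removed the median of the sensors was -0.10, against -0.21, and that of degradation -0.18, against -0.27. Removing the trend moved 23 of 54 named genes outside their own counting interval, and a pseudocount of 5 moved 1, PKP2. Scaling moved all differences by under 0.01 and turned no sign among the 40 genes, nor did the pseudocount, while removing the trend turned 7. Depth limits CTH, NUPR1, DDIT3 and CHAC1 most, at 57.01 to 143 counts.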

Other observations

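Carriers of amino acids were looked at together after their values were seen. SLC38A1 and SLC38A2, carriers of glutamine and other small neutral amino acids, stood at 288 CPM and 322 CPM in the PKP2 library, against 361 CPM and 401 CPM in the vector library, ratios of 0.796 (0.767 to 0.827) and 0.803 (0.774 to 0.832). SLC7A1, SLC7A5 and SLC7A11 were lower too, whereas SLC3A2, the heavy chain that SLC7A5 and SLC7A11 share, had 602 CPM in the PKP2 library and 587 CPM in the vector library, with an interval of 0.997 to 1.05. The counting intervals of SLC1A4 (ratio 0.923), SLC1A5 (1.00), SLC6A9 (1.01) and SLC43A1 (1.01) included 1, while SLC7A6 was lower, at a ratio of 0.898 (0.840 to 0.960). Of all expressed genes, 19.8% had an interval below 1. SLC7A5 and SLC7A11 thus had lower ratios than their shared heavy chain in these libraries, a contrast that was not tested. With the length and GC trend removed SLC38A1 lay at -0.16 instead of -0.33, SLC38A2 at -0.21 instead of -0.32 and SLC7A11 at -0.21 instead of -0.43. SLC7A1 lay at -0.13 instead of -0.22 and SLC7A6 at -0.06 instead of -0.15. SLC7A5 moved away from 0, to -0.17 from -0.14, and SLC3A2 turned to -0.08 from 0.04. SLC1A4 then lay at -0.03, SLC1A5 at -0.10, SLC6A9 at -0.08 and SLC43A1 at -0.09. Every carrier named here was thus below 0 with the trend removed, beside a median of -0.01 over all expressed genes. The range over these carriers was then narrower, and SLC7A6 lay close to SLC3A2.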
